A study of Homo sapiens with 4 samples.

Results

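The S100 calcium-binding proteins described here are 10 genes, S100A2, S100A4, S100A6, S100A7, S100A8, S100A9, S100A10, S100A11, S100A14 and S100A16. They were taken by name, and every array probe designed to a RefSeq transcript of one of them was used. All 10 genes were on the array, with 11 of the 50590 probes measured and 10 of the 20501 genes that a probe names. The cells were MCF-10A, a human line of non-malignant mammary epithelial cells, grown with EGF, insulin, hydrocortisone and cholera toxin and treated with a hydrocarbon-stapled peptide at 10 µM. Per the labels one peptide was called stapled-peptide and the other, marked as control, non-specific stapled-peptide; the labels do not say which of the study's stERAP peptides each one was. RNA was taken after 24 h and 48 h and hybridized to 1 single-colour Agilent array per peptide and time, 4 arrays in all, on 1 slide. The comparison of the peptides in MCF-10A cells was made to look for effects of a stapled peptide on normal cells.

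S100 proteins are small EF-hand proteins that mostly act as dimers, change shape when they bind calcium and then dock onto partner proteins inside the cell. Some members are also released and act on cell-surface receptors such as AGER (RAGE) and TLR4. In stratified and mammary epithelium several of them are abundant, and most of their genes lie side by side in 1 cluster on chromosome 1, next to genes of the cornified envelope.

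With 1 array per condition no test between conditions was possible, the number of arrays limits the precision, and every difference is a description of these arrays. Values are log2 signals after quantile normalization over the 4 arrays, and a difference between the peptides subtracts the stapled-peptide value from the non-specific one at the same time. A probe was measured on an array when most of its spots carried the scanner software's mark for well above background, and is called dim otherwise. The 48 h array of non-specific stapled-peptide stood apart from the others across all probes, with Pearson correlations of 0.838 to 0.844 against 0.987 to 0.988 among the other 3 arrays (32704 to 36193 probes, which are not independent replicates). The SD of the log2 difference between the peptides over probes was 0.43 at 24 h and 1.55 at 48 h, and the 24 h value serves below as the yardstick for a small difference.

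Cell type markers also set that array apart. Values are given in the order stapled-peptide and non-specific at 24 h, then stapled-peptide and non-specific at 48 h, and the fourth is called the last array. The labels give MCF-10A for all 4 arrays, every 48 h difference between the peptides rests on the last array, and whether its RNA came from MCF-10A cells was not tested. The 8 basal mammary epithelial markers were measured on all 4 arrays, with a median log2 signal of 12.09, 11.79 and 11.90 on the first 3 and 5.01 on the last. All 8 were lower at 48 h, against 48.9% of all genes (KRT5 by −9.58, KRT14 by −7.20, KRT17 by −7.09 and TP63 by −1.01). Their log2 signals summed to 90.9, 90.2, 90.4 and 42.1. General epithelial markers were mixed, with KRT7 at −6.06, KRT8 at −2.79 and KRT18 at −2.34 but EPCAM at 0.88 and KRT19 at 0.94. Of 8 genes known from embryonic kidney lines, 3, 3, 4 and 5 were well above background on the arrays in order, and their log2 signals summed to 35.0, 34.9, 35.0 and 70.6. At 48 h 5 of them were higher on the last array and 2 lower (48.9% of all genes were lower). Of the 5, 4 were higher by more than 10-fold (2.64% of all genes). CKB was higher by 6.13, LIN28B by at least 504-fold, NEFM by at least 264-fold and NEFL by at least 153-fold. HOXA9 was higher by 2.88, and by 0.033 at its other probe. The bounds for PAX2 and L1CAM were −0.59 and −0.58 at their probes with the higher mean signal. The other PAX2 probe was dim on the first 3 arrays and had 7.78 on the last, so it was at least 14.8-fold higher. The other L1CAM probe was also dim on the first 3 arrays and had a bound of 0.11. PHOX2A was dim on every array.

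Myeloid markers matter because S100A8, S100A9 and S100A12 are also neutrophil genes. They were measured for 5, 5, 5 and 4 of 7 genes, with sums of 47.4, 46.7, 45.6 and 32.8. MPO and ITGAM were dim on all 4 arrays, whereas PTPRC had 6.24, 6.34, 5.77 and 5.28 at its brightest probe. Its other probes were dim on some or all arrays. The 5 myeloid markers with a 48 h difference were all lower (48.9% of all genes were). CD68 differed by −5.07, CD14 by −3.73, CSF1R by at most −2.67, FCER1G by −0.87 and PTPRC by −0.49. Fibroblast markers, which matter for S100A4, were measured for 5, 5, 4 and 3 of 8 genes, with sums of 42.8, 42.8, 41.7 and 27.4, and COL1A2 and COL3A1 were dim on every array. Of 5 fibroblast markers with a 48 h difference 3 were lower and 2 higher. DCN differed by −9.15, PDGFRA by at most −2.12 and PDGFRB by at most −1.84, while COL1A1 was higher by 0.13 and LUM by at least 0.19. The part of any of these shifts in the S100 differences was not tested, and fewer cells of a type and less RNA per cell cannot be told apart in bulk RNA.

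The S100 genes were measured on every array and all 10 were lowest on the array labelled non-specific stapled-peptide at 48 h. Over all genes, 45.1% of 17675 were lowest on that array. At 48 h all 10 were lower with non-specific stapled-peptide than with stapled-peptide (48.9% of 17112 genes were lower), by 1.38-fold for S100A7 to 576-fold for S100A16. With the normexp background correction, which adds an offset of 50, S100A16 was 173-fold lower and S100A6, at 452.5-fold, and S100A2, at 197-fold, were lower by more. Of the 10 genes, 9 were lower by more than 4-fold (8.70% of all genes), 7 by more than 10-fold (3.92% of all genes), 5 by more than 50-fold (1.15% of all genes) and 4 by more than 100-fold (0.707% of all genes), and none was higher. The median difference of the 10 genes was −5.62, against 0.031 over all genes. At 24 h no member passed 4-fold (0.413% of all genes did, in either direction), 7 were higher and 3 lower (52.0% of all genes were higher), and the median was 0.097 against 0.0073 over all genes.

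S100A16, a widely expressed member, had log2 signals of 13.94 (stapled-peptide) and 14.07 (non-specific) at 24 h, and of 13.87 (stapled-peptide) and 4.70 (non-specific) at 48 h. The first 3 arrays lay within 0.20 of each other, and the last was lower than stapled-peptide at 48 h by 9.17 on the log2 scale. It ranked 14th from the lowest among 17112 genes by its 48 h difference. S100A6 (calcyclin), which binds CACYBP and annexin A11, had 17.41, 17.45 and 17.41 in the same order and 8.34 on the last array. Before normalization these were processed signals of 188933, 186093, 164273 and 353. Its difference was −9.07 (536-fold), rank 17 of 17112, and its signal on the last array was still 18.2 times the local background before background subtraction.

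S100A2, a member of basal epithelial cells and a known p63 target, had 15.17, 15.40, 15.27 and 7.08, a difference of −8.20 (294-fold). S100A4, a myosin-binding member long studied in cell motility and metastasis, had 12.75, 12.85, 12.76 and 6.38, a difference of −6.39 (83.7-fold). In each gene the first 3 arrays differed by at most 0.23 and the last lay far below them.

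S100A8 and S100A9 form calprotectin, a heterodimer that binds zinc and manganese and is released by neutrophils and by stressed epithelium. S100A8 had 12.58 on each of the first 3 arrays, which spanned 0.0031 after normalization, and 5.03 on the last, a difference of −7.55 (187-fold). Before normalization its processed signals were 6522, 6300.5, 5593 and 31.8, so the small span does not measure agreement between single spots. S100A9 had 8.96, 8.67, 8.86 and 4.0, a difference of −4.86 (29.0-fold). Both genes were therefore lower together at 48 h, while at 24 h S100A8 differed by −0.0031 and S100A9 by −0.29, which was the largest 24 h difference in size among the 10 genes and still below the SD of 0.43.

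S100A10, the partner of annexin A2, had 14.23, 14.33, 14.40 and 11.11 and its spot on the last array was still 128 times the local background. Its difference was −3.29 (9.75-fold), just under 10-fold, and −3.47 after scaling to the 75th percentile, which put it past. S100A11, the partner of annexin A1, was the one member with more than 1 probe. Its probe with the higher mean signal had 13.64, 13.74, 13.68 and 8.85, a difference of −4.83 (28.5-fold), and its other probe had 13.10, 13.25, 13.13 and 8.41, a difference of −4.72.

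S100A14, a member of epithelial cells, had 8.06, 8.02, 7.92 and 4.97, a difference of −2.95 (7.73-fold). S100A7 (psoriasin), an antimicrobial protein of differentiated and inflamed epidermis, had 4.33, 4.52, 4.45 and 3.98. All 4 values of S100A7 lay near background, with a difference of −0.46. A signal at the lowest well-above-background value of the last array would have given −0.88, so a larger difference could not have been measured for this gene. The SD between its spots was 0.24, 0.26, 0.26 and 0.47 on the 4 arrays in the same order, over 10, 10, 7 and 10 spots. The other 10 member probes had 1 spot per array, for which the scanner software's own error was 10 to 20.6% of the signal.

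The order of a gene's levels over the arrays was the same at its low end for all 10 genes, with non-specific stapled-peptide at 48 h last, whereas the remaining 3 arrays were within 0.0031 (S100A8) to 0.29 (S100A9) of each other and their order is not beyond the 24 h SD of 0.43. For S100A7 the step from the last array to its next lowest, 0.34, was also within that SD over probes, but just above the 24 h SD over genes, 0.336. On the 48 h array of non-specific stapled-peptide, 2 genes, S100A7 and S100A9, lay within 1 log2 unit of the lowest well-above-background signal of 3.57. S100A16, S100A14 and S100A8 were not far above it, by 1.14, 1.40 and 1.46. The spot of S100A16, the gene with the largest difference, was there 3.67 times the local background before background subtraction. With the normexp background correction 6 of the 10 genes had differences closer to 0 by more than the 24 h SD. S100A16 was at −7.44, S100A2 at −7.62 and both stayed past 100-fold. S100A8, at −5.88, was no longer past 100-fold, S100A4, at −5.52, no longer past 50-fold, S100A9, at −2.85, no longer past 10-fold, and S100A14, at −1.74, no longer past 4-fold. S100A7 was at −0.096, and S100A6, S100A10 and S100A11 moved by less than that SD.

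Comparing 48 h with 24 h within each peptide used the same 4 arrays in another way, so it shares samples with the differences above. With stapled-peptide the 10 genes moved by −0.15 (S100A14) to 0.16 (S100A10), with a median of 0.0072 (−0.21 without normalization), and none passed 10-fold (0.0124% of 16138 genes were lower by more). With non-specific stapled-peptide all 10 were lower at 48 h than at 24 h (49.6% of 17297 genes were), by −0.53 (S100A7) to −9.37 (S100A16), with a median of −5.68. Of them 7 passed 10-fold (3.91% of 17297 genes were lower by more) and 4 passed 100-fold (0.688%).

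For the 10 genes, 14 windows of 250 bases before a transcript start were available from RefSeq (GRCh38.p14), and they were searched on both strands for an AP-1 site and a TATA box. No window of the 10 genes held both motifs, so no matches overlapped. The AP-1 site, TGACTCA, was found for 1 of the 10 genes, S100A2, beginning 52 bases before the start, in 1 of the 14 windows. Over all genes it was found for 5.19% of 27305 genes and in 4.20% of 35116 windows. The TATA box, searched as TATAAA, was found for 4 of the 10, S100A4, S100A7, S100A8 and S100A9, in 5 of the 14 windows. Over all genes it was found for 3563 of 27305 genes and in 10.7% of 35116 windows. The 5 windows include overlapping windows of S100A8 that hold the same site. The 4 genes with TATAAA had 48 h differences from −7.55 to −0.46 and a median of −5.62, and the 6 genes without it had −9.17 to −2.95 and a median of −6.52, so the ranges overlapped. A match is a stretch of letters and not a shown binding site, and its absence says only that these letters are not in the window.

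The windows below are shown for the genes with a match, among them S100A7 with the smallest difference, and for S100A6 as a gene with a large difference and no match. They read 5′ to 3′ toward the start of the gene and end at the base before it, and capitals mark the motif found. For S100A8, whose starts overlap, only the last 30 bases before the start with the nearest TATAAA are given.
S100A6 (chr1:153535992-153536241, minus strand): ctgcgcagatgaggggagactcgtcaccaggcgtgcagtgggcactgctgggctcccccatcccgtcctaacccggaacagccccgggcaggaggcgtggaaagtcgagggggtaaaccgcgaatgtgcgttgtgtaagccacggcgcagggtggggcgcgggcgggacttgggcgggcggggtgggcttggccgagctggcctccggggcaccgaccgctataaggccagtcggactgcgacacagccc
S100A2 (chr1:153565845-153566094, minus strand): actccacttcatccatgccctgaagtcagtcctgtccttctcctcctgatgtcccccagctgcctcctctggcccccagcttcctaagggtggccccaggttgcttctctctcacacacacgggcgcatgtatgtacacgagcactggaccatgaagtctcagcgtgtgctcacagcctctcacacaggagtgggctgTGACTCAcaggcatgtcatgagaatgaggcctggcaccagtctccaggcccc
S100A4 (chr1:153545807-153546056, minus strand): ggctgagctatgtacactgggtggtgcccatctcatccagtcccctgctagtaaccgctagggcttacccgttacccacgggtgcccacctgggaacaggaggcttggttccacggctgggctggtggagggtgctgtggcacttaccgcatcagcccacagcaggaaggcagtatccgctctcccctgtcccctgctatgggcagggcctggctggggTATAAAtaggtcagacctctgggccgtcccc
S100A9 (chr1:153357604-153357853, plus strand): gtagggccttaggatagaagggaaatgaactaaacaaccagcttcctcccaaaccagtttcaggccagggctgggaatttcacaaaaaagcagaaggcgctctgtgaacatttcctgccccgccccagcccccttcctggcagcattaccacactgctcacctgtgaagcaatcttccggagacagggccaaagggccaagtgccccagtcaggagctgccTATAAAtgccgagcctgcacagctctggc
S100A7 (chr1:153460652-153460901, minus strand): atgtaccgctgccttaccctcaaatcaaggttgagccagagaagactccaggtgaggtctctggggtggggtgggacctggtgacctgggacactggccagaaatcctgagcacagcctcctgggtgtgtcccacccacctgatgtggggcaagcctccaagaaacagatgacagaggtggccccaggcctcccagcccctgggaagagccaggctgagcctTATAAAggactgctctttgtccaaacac
S100A8 (chr1:153391074-153391103, minus strand): cTATAAAaaggagctgcctctcagccctgc

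In S100A8 and S100A9 TATAAA began 29 bases before the start, in S100A7 28 and in S100A4 31. In another S100A8 window, which ends at a different start, the same site began 126 bases before it.

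Along chromosome 1, the annotation order places 14 S100 genes of the array from S100A9 to S100A1, and 8 of the 10 genes lie among them, while S100A10 and S100A11 lie apart from this run. Of these 14 genes, 13 had a 48 h difference and all 13 were lower with non-specific stapled-peptide (48.9% of all genes were lower). Their median was −4.86, and 7 were lower by more than 10-fold (3.92% of all genes). The 10 genes with a difference on either side, which are small proline-rich and late cornified genes before the run and genes such as CHTOP and ILF2 after it, had a median of −0.16, with 11 lower and 9 higher and 0 past 10-fold (over all genes 3.92% were lower and 2.64% higher by more than 10-fold). Their range was −2.29 (SPRR2F) to 1.71 (CHTOP). The values of SPRR1B, LELP1 and NPR1 are bounds, and a neighbour near background could not have shown a large drop. Within the run S100A4 (−6.39), S100A3 (at most −7.80), S100A2 (−8.20) and S100A16 (−9.17) follow one another, and S100A14 (−2.95), S100A13 (−2.08) and S100A1 (at most −0.51) come after them. S100A7 (−0.46) lies next to S100A6 (−9.07), and S100A5 (−1.30) lies between S100A6 and S100A4. Gene order came from an assembly newer than the one on which the probe grid was built, so positions of probes are not given.

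Further members of the family were less uniform. Of 11 other S100 genes 10 were on the array, 7 had a 48 h difference, 5 of these were lower and 2 higher (48.9% of all genes were lower), and the median was −1.30. S100A3, a cysteine-rich member of hair cuticle, had 11.35, 11.42 and 11.37 but stayed within background on the last array, so it was at least 223-fold lower. S100A12, which like S100A8 and S100A9 is best known from neutrophils, had 5.85, 6.23 and 5.78 and was at least 4.64-fold lower. S100A13, which takes part in the release of signal proteins without a leader sequence, had 14.74, 14.85, 14.80 and 12.73, a difference of −2.08.

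S100P, first found in placenta, went the other way, with 4.44, 4.69, 4.67 and 8.56, a difference of 3.89 (14.8-fold higher, against 2.64% of all genes higher by more than 10-fold). S100A5 differed by −1.30 and S100A1 was at least 1.43-fold lower at its probe with the higher mean signal. S100G, an intestinal calcium carrier, had 3.95, 4.08, 3.85 and 3.93, near background throughout, and missed the mark for well above background with stapled-peptide at 48 h. It is the other gene counted as higher, by a bound of only 0.041, within the 24 h SD of 0.43. S100Z was well above background on 1 array, stapled-peptide at 24 h, with 4.02. S100A7A and S100B were dim on all 4 arrays. S100A7 and S100A7A are close copies, as are S100A11 and its pseudogenes, and cross-hybridization between them was not tested.

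The S100 fused-type genes, large epidermal proteins such as filaggrin that carry an S100 domain at their start, were mostly dim. Of 7 genes 4 (CRNN, FLG2, HRNR and RPTN) were dim on all 4 arrays. The other 3, FLG, TCHH and TCHHL1, had differences of −0.79, −0.67 and −0.67 at 48 h, none past 4-fold (8.70% of all genes were lower by more). With stapled-peptide at 48 h they had 5.20, 4.79 and 5.70, and the lowest well-above-background signal of the last array was 3.57. A drop past 4-fold could therefore not have been measured for FLG and TCHH.

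Partners and receptors of S100 proteins differed with a median of −0.47 at 48 h over 13 genes, 8 lower and 5 higher (48.9% of all genes were lower). Of them 3 were past 10-fold, all lower (3.92% of all genes). The annexins split. ANXA1, the partner of S100A11, had 13.85, 13.94, 13.93 and 6.24, a difference of −7.69 (206-fold). ANXA2, which forms a tetramer with S100A10, had 15.60, 15.55, 15.55 and 10.69 and differed by −4.85 (28.9-fold), whereas ANXA11, a partner of S100A6, had 12.41, 12.33, 12.39 and 11.44 and differed by −0.95.

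AHNAK, a very large scaffold protein that binds the S100A10 and annexin A2 complex, had 13.43, 13.43, 13.62 and 8.60, a difference of −5.02, and −4.92 and −2.89 at its other probes. MYH9, the non-muscle myosin heavy chain bound by S100A4, differed by −2.46 (5.52-fold). The receptors differed by less. AGER had 7.62, 7.71, 7.62 and 7.40, TLR4 had 5.32, 5.05, 5.13 and 4.65, and BSG, a receptor described for S100A9, had 12.16, 12.11, 12.12 and 11.22. The lowest well-above-background signal of the last array was 3.57, so a drop as large as that of AHNAK could not have been measured for AGER or TLR4. The other TLR4 probe was dim on the last array, with a bound of −1.16.

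The remaining partners were at or above their stapled-peptide level at 48 h. FABP5, a fatty acid carrier that binds S100A7, was higher by 1.17, CACYBP by 0.86, HMGB1, another AGER ligand, by 0.82, COPS5 by 0.25 and SUGT1 by 0.086, the last pair being within the 24 h SD of 0.43. At 24 h the 13 genes lay between −0.27 (TLR4) and 0.14 (FABP5).

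**Figure D1:**
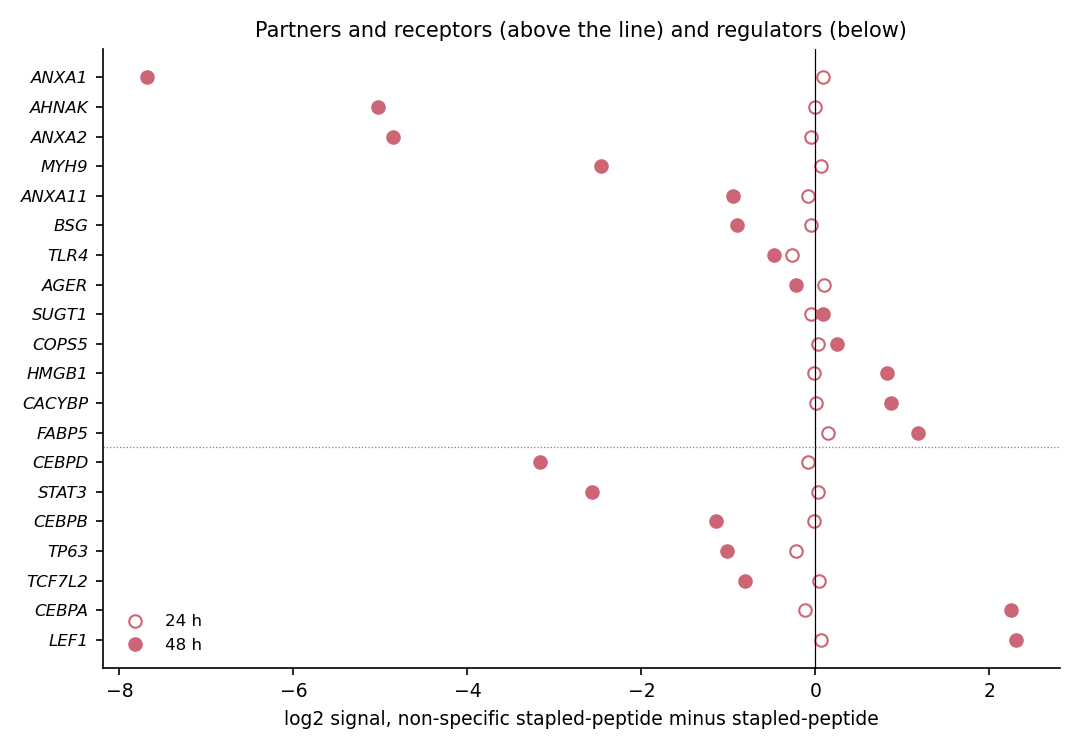
Log2 differences, non-specific stapled-peptide minus stapled-peptide, at 24 h (open circles) and 48 h (filled circles) for 13 partners and receptors of S100 proteins and 7 regulators, each at its brightest probe. The open circles lie near 0, and the filled circles reach from −7.69 for ANXA1 to 2.31 for LEF1.

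Of 7 transcription factors known to act on S100 genes, 5 were lower and 2 higher at 48 h (48.9% of all genes were lower), with a median of −1.01. Past 10-fold there were 0 (over all genes 3.92% were lower and 2.64% higher by more). CEBPD, a C/EBP factor of acute-phase and epithelial genes, had 11.96, 11.88, 11.88 and 8.71, a difference of −3.17, and STAT3 differed by −2.57. CEBPB, which acts on S100A8 and S100A9, differed by −1.14. TP63, a factor of basal epithelium, had 6.22, 5.99, 5.86 and 4.85, a difference of −1.01. CEBPA and LEF1, the latter a partner of β-catenin, which acts on S100A4, were higher by 2.25 and 2.31.

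The genes whose 4 levels, centred on their mean, lay closest to S100A16 among 17675 genes and outside the S100 family were DCN, AOX1 and ADIRF, with Euclidean distances of 0.12 log2 units for DCN and 0.14 for ADIRF. DCN, which encodes the matrix proteoglycan decorin, had 14.84, 14.96, 14.88 and 5.73. AOX1 was dim on the last array, so its place rests on a signal within background and no distance is given. Closest to S100A7 were OGDH (5.53, 5.73, 5.67 and 5.19), ENO4 and ZNF93, with a distance of 0.014 for OGDH, and ENO4 and ZNF93 have the same limit. These distances rest on 4 arrays, of which 1 stood apart.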

How the data were processed

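RNA labelled as from MCF-10A cells was measured on 4 single-colour Agilent arrays, 1 per peptide and time. The authors extracted spot intensities with Agilent Feature Extraction (version 10.7.1.1 per the file headers, 9.5 per the labels) as linear background-subtracted signals, and these deposited intensities were not normalized between arrays. Quantile normalization over the 4 arrays followed the study's methods.

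Control spots and spots marked as outliers were left out, the mean log2 signal over the spots left was taken, and 9 of 50599 probes with no remaining spot on an array were dropped. Where a probe was dim on 1 side of a comparison, that side was set no lower than the dimmest signal marked well above background there, which gives a bound. Probes dim on both sides had no difference. RefSeq accessions (GRCh38.p14) named 28168 probes of 20501 genes, and a gene was taken at its probe with the highest mean signal. No spot was saturated. One gene of the regulator list is not reported here. All 4 arrays lay on 1 slide, so slide is no batch between them.

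The S100 genes, the gene lists and the rule for named genes were chosen with earlier results of these data known. The rule names all members, the other S100 genes measured, partners and receptors past 4-fold, examples of each list, the 3 genes nearest to the members with the largest and smallest 48 h difference, and the S100 neighbours. In the text further partners, regulators and cell type markers are named after their values were seen. The results were recomputed without normalization, with 75th-percentile scaling, with normexp at an offset of 50 on median pixel signals, no bound, only probes measured on both arrays, outlier-marked spots kept, the authors' combined table of intensities, averaged probes per gene, and thresholds of 4-fold and 50-fold. Python 3.11.15, numpy 2.4.6, pandas 2.3.3, matplotlib 3.10.9 and limma 3.58.1 in R 4.3.3 were used. On simulated 48 h data with 50590 probes, 99 of 100 probes changed by more than 100-fold were called, 0 of 100 changed by 4-fold passed 100-fold and 0 of 50390 unchanged probes passed 10-fold. The simulated noise was smaller than the spread between the real arrays, and only bright probes were changed. These counts therefore check the calculation and give no error rate for the real arrays or for dim probes. Without replicate arrays there is no p-value.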

Additional observations from a re-analysis of the deposited data

Results flagged for a closer look

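For 7 of the 10 S100 genes the difference between the peptides had opposite signs at 24 h and 48 h, slightly positive at the first time and negative at the second. Over all 15705 genes with both differences, 45.4% had opposite signs and 24.6% were higher first and lower later. The count was 6 under 75th-percentile scaling and without normalization, where S100A6 at 24 h was at −0.0042 and −0.022. The change of the difference from 24 h to 48 h was −9.30 for S100A16, −9.11 for S100A6, −8.43 for S100A2, −6.49 for S100A4, −4.93 for S100A11, −3.38 for S100A10 and −0.65 for S100A7. The 24 h differences of these genes, 0.23 for S100A2, 0.19 for S100A7, 0.13 for S100A16, 0.11 for S100A4, 0.097 for S100A10 and S100A11 and 0.044 for S100A6, were each below the SD of 0.43 over probes. With 1 array per peptide and time the difference between the times was not tested.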

How the results depend on the processing

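No paired analysis was possible because a condition has 1 array and the labels give no replicate numbers. All 10 S100 genes stayed lower at 48 h under the 8 alternative processings, not all of which could move them. Every member was measured on every array, so no bound and only probes measured on both arrays left the differences unchanged by construction. The authors' combined table held the same signals, and averaging probes could move only S100A11. The number past 10-fold, 7, was 8 under scaling to the 75th percentile (4.23% of all genes were lower by as much) and 6 under normexp (2.03%), and the number past 100-fold, 4, was 3 under normexp (0.240%). At 4-fold it was 9 and at 50-fold 5, against 8 (5.03%) and 4 (0.468%) under normexp. The median 48 h difference, −5.62, was −5.08 under normexp, and for non-specific stapled-peptide the median change from 24 h, −5.68, was −5.11. The cause was not tested. No normalization shifted the median of all genes at 48 h by 0.23 and gave −5.46 for the S100 genes, and it took the median change from 24 h with stapled-peptide from 0.0072 to −0.21. Under normexp that median was −0.011. S100A7 ranged from −0.72 to −0.096. A normalization without the array that stood apart, chosen after seeing the data, left the 24 h median at 0.098.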

Other observations

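The authors' combined table, whose columns have medians of 32.3, 31.8, 24.4 and 27.4, equalled the mean log2 signal over a probe's unmarked spots, put back on the linear scale, for 100% of values within 0.001 log2 units. It had therefore already lost the spots marked as outliers, among them 3 of the 10 S100A7 spots of the stapled-peptide array at 48 h.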
